A study of Mus musculus with 12 samples.

Results

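The 10 genes described here, Cdkn1a, Mdm2, Ccng1, Bax, Phlda3, Gdf15, Trp53inp1, Sesn2, Bbc3 and Eda2r, are transcribed under the control of p53 and serve as a readout of DNA breaks. They were picked by gene symbol, and all 10 were found among the 23238 symbols of the count tables. Of these, 9 passed the filter on low counts and entered the tests, whereas Eda2r, which had counts in 1 library, did not.

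p53 is a transcription factor that is kept at low levels by Mdm2, the ligase that marks it for degradation. Kinases that sense DNA breaks release p53 from Mdm2, and p53 then raises the transcription of genes that arrest the cell cycle, repair damage or trigger apoptosis, together with Mdm2 itself, which closes a feedback loop. p300 and its relative CBP are acetyltransferases that bind p53 and act as its coactivators. Bleomycin cleaves DNA, and alveolar type II (ATII) cells, the surfactant-producing progenitors of the alveolus, are a main target of the injury it causes in the lung.

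RNA was taken from sorted ATII cells of 12 mice, 3 in each of 4 groups, and 1 library was made per mouse. Con mice received PBS and BLM mice 4 mg/kg bleomycin into the trachea, and neither carried a p300 deletion. KO and KOBLM mice carried an ATII-directed deletion of p300 (floxed exon 9, Spc-CreERT2, tamoxifen) and received PBS and 4 mg/kg bleomycin, respectively. The mice were 8 weeks old at the tamoxifen injection (10 mg/kg). The labels call the Con and BLM mice negative controls, and the titles of the Con libraries say WT. The study's methods for RNA-seq name C57BL/6 mice aged 8 to 10 weeks beside the knockout, whereas its results speak of Spc-p300 f/f mice, and the labels describe the tamoxifen step for all groups. Whether the controls were given tamoxifen or its vehicle, and how long after bleomycin the lungs were taken, is not given in the sources used here. Cells were sorted as CD74+ and EpCAM+, and the deletion acts only where the Spc promoter is active.

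Levels are given as CPM, counts scaled to 1000000 reads per library, after TMM scaling, a correction of library size that is robust to a few dominant genes. The kit primes with oligo-dT and is meant to read the 3′ end of each polyadenylated transcript once, so that levels were compared between genes without a length correction. Rn45s, a ribosomal RNA precursor, held 2.04% (Con 3) to 21.6% (KO 2) of the counts, with 17.4% in BLM 3. The part of such reads in the levels was not tested. The 12 libraries held 7005005 to 11153154 counts, and the detection floor was set at 3 counts, 0.217 to 0.494 CPM depending on the library. Floors of this kind cover counting error only, since the reads carry no molecular identifiers. The confidence intervals of log2 fold changes come from the edgeR fit and also include the variation between libraries that it estimates. A gene was called, and is said to have risen or fallen, where it changed by more than 1.5-fold at p below 0.05 without adjustment in edgeR's quasi-likelihood test, the threshold of the study. In edgeR no gene of the 13054 tested passed after Benjamini-Hochberg adjustment (188 to 584 genes per comparison did without it), and the smallest adjusted p was 0.9. DESeq2 passed 57 to 114 genes per comparison after adjustment, none of them a member. Every call therefore rests on the unadjusted test.

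The libraries were checked against their labels before any comparison. The library labelled BLM 3 stood apart. It had 6847 genes with a count, whereas the others had 8790 to 13838, and its Spearman coefficients with the other BLM libraries were 0.473 and 0.478, against 0.693 to 0.889 for the remaining within-group pairs. Its pluripotency genes summed to 2480 CPM (495 to 854 CPM in the others) and its macrophage markers to 798 CPM (7519 to 32765 CPM in the others). The pluripotency sums of Con, KO and KOBLM were mostly Klf4 (573 to 822, 495 to 787 and 619 to 835 CPM). Dppa5a of the same list reached 582 CPM in BLM (median 0.728 CPM) and was at 0 in Con and KO. In the other 11 libraries the 16 macrophage markers summed to more than the 13 ATII markers did (771 to 3687 CPM over all 12 libraries), and Nkx2-1, a transcription factor of lung epithelium, was at most 4.33 CPM. Ep300, the gene of p300, was not lower in the libraries labelled KO (143 ± 46.4 CPM, SD, n = 3) than in Con (109 ± 53.5 CPM, SD, n = 3), but the kit reads far from the floxed exon, so that the count does not check the deletion. The study reports that it checked the deletion by qRT-PCR in isolated ATII cells and by co-staining of p300 and cell markers in lungs. In these counts, directions for KO and KOBLM rest on the labels.

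The promoters of the members were searched for the p53 half-site, the 10-base motif that p53 binds as a pair, since the rule that chose the genes did not use sequence. Promoter sequences (RefSeq, GRCm38.p6, from 250 bases before to 50 bases after a start site) were found for 9 of the 10 members. Trp53inp1 had none. Pairs of half-sites up to 13 bases apart were scored by their mismatches, with the C and G of the core required. The motif reads alike on both strands. The closest matches, in Cdkn1a, Ccng1, Bax and Bbc3, are shown because these are the genes whose windows carry a pair with the fewest mismatches. Capitals mark the bases that fit a half-site, and lower-case letters within a half-site mark mismatches.
Cdkn1a, chr17:29090896-29090947, + strand: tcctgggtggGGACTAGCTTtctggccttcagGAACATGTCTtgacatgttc
Cdkn1a, chr17:29090918-29090957, + strand: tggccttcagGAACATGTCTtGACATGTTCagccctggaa
Ccng1, chr11:40755452-40755491, - strand: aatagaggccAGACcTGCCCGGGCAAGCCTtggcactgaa
Bax, chr7:45467069-45467109, - strand: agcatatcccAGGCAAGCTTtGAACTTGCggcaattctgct
Bbc3, chr7:16309476-16309515, + strand: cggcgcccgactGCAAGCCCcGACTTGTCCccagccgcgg

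Cdkn1a held a pair with 0 mismatches, 12 bases apart and 73 to 42 bases before the start site at 29090979. Of the 32851 promoter windows of all genes, 0.0731% held such a pair. The downstream half-site of this Cdkn1a pair formed a second pair with the 10 bases that follow it directly, with 1 mismatch. The window of Cdkn1a at the start site 29093769 had a best pair with 5 mismatches, as few as 68.7% of all windows. The 9 members had 13 windows, and each member is given its best window beside a share of single windows. Ccng1 held a pair with 1 mismatch and no spacer, 195 to 176 bases before the start site, a score that 0.627% of all windows reached or bettered. The pair of Bax had 2 mismatches (4.09% of all windows had as few) and that of Bbc3 had 3 (15.6% of all windows). The best pairs of Mdm2 and Gdf15 had 4 mismatches, as few as 40.4% of all windows, and those of Phlda3, Sesn2 and Eda2r had 5 or 6. Mdm2 held a single exact half-site at 186 to 177 bases before the start site, shown because Mdm2 was the member in which all libraries after bleomycin lay above all libraries after PBS.
Mdm2, chr10:117710925-117710954, - strand: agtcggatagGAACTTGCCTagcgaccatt
An exact half-site before the start site stood in the windows of 4 members and in 7.13% of all windows. A match of letters is a description and not a binding site, and a window without one says nothing of p53 sites elsewhere in the gene.

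The levels of the members spanned a wide range. Over the 12 libraries Cdkn1a had the highest mean (596 CPM), followed by Gdf15 (309 CPM) and Mdm2 (170 CPM). Ccng1 (95.8 CPM), Trp53inp1 (52.9 CPM), Phlda3 (39.7 CPM), Bax (35.5 CPM) and Bbc3 (23.2 CPM) followed, and the ranges of these neighbours overlapped. Sesn2 (2.78 CPM) was at 0 counts in 5 libraries and Eda2r in 11. Cdkn1a alone held 18.9% to 69.9% of the summed CPM of the 10 genes.

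**Figure D1:**
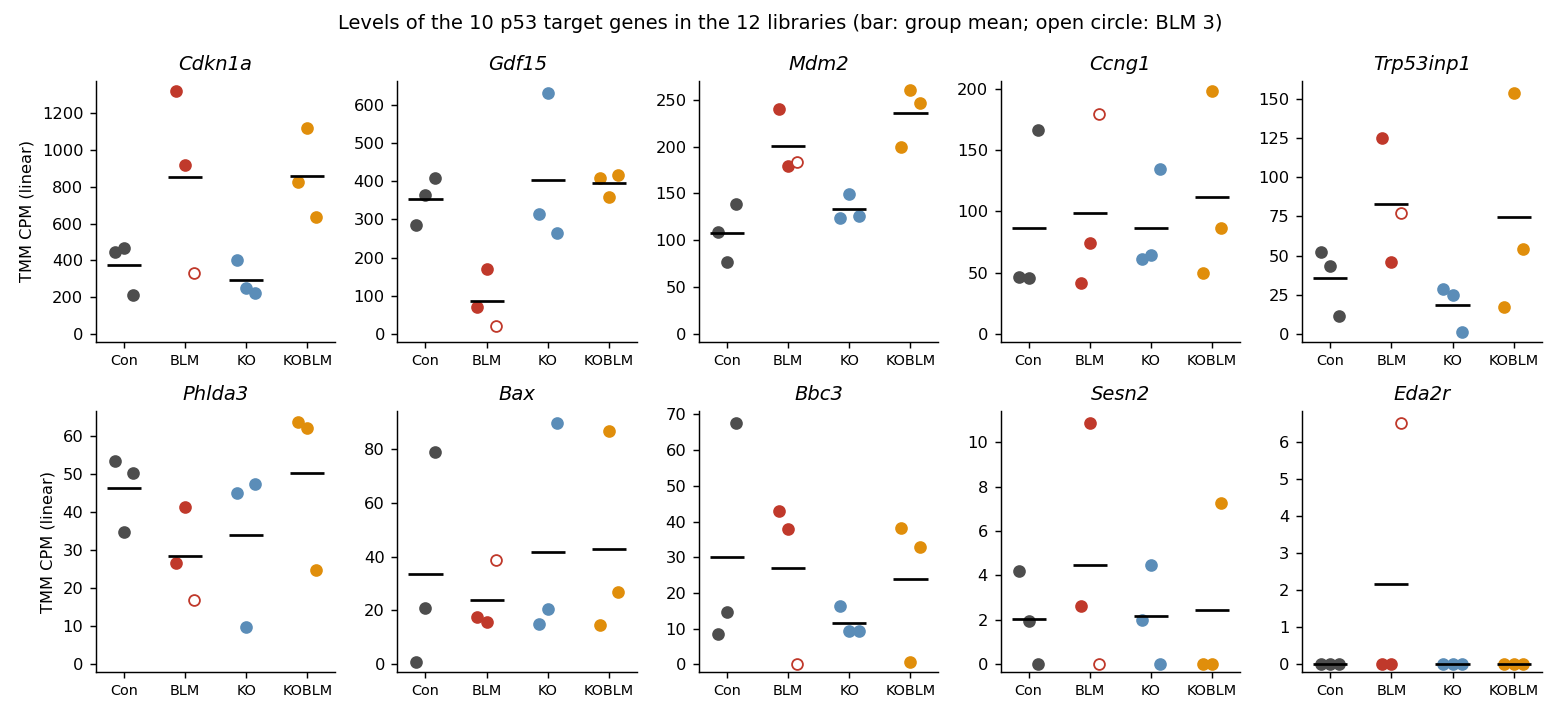
TMM CPM (linear axes that differ between panels) of the 10 p53 target genes in each of the 12 libraries, grouped as Con, BLM, KO and KOBLM, with a bar at the mean of 3 and an open circle for BLM 3. All 6 Mdm2 values after bleomycin lie above all 6 values after PBS, the 3 BLM values of Gdf15 lie below all others, and the groups of Ccng1, Bax, Bbc3 and Sesn2 overlap.

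Bleomycin was compared with PBS within each genotype and averaged over both, to ask which of the p53 target genes responded to it. In BLM against Con, 1 of the 9 tested members rose (Cdkn1a) and 1 fell (Gdf15). Over all tested genes 4.27% were called in this comparison, 2.19% higher and 2.08% lower. In KOBLM against KO, 1 of the 9 rose (Cdkn1a) and none fell, whereas 1.69% of all genes were called, 1.16% higher and 0.529% lower. Averaged over the genotypes, 2 rose (Cdkn1a and Mdm2) and 1 fell (Gdf15), whereas 4.47% of all genes were called, 2.72% higher and 1.75% lower. The median log2 fold change of the 9 members was 0.19 in BLM against Con, 0.56 in KOBLM against KO and 0.44 on average, and that of all tested genes was -0.08, 0.08 and 0.03. The plot of fold changes shows that Sesn2, Bbc3 and Bax had the widest intervals.

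**Figure D2:**
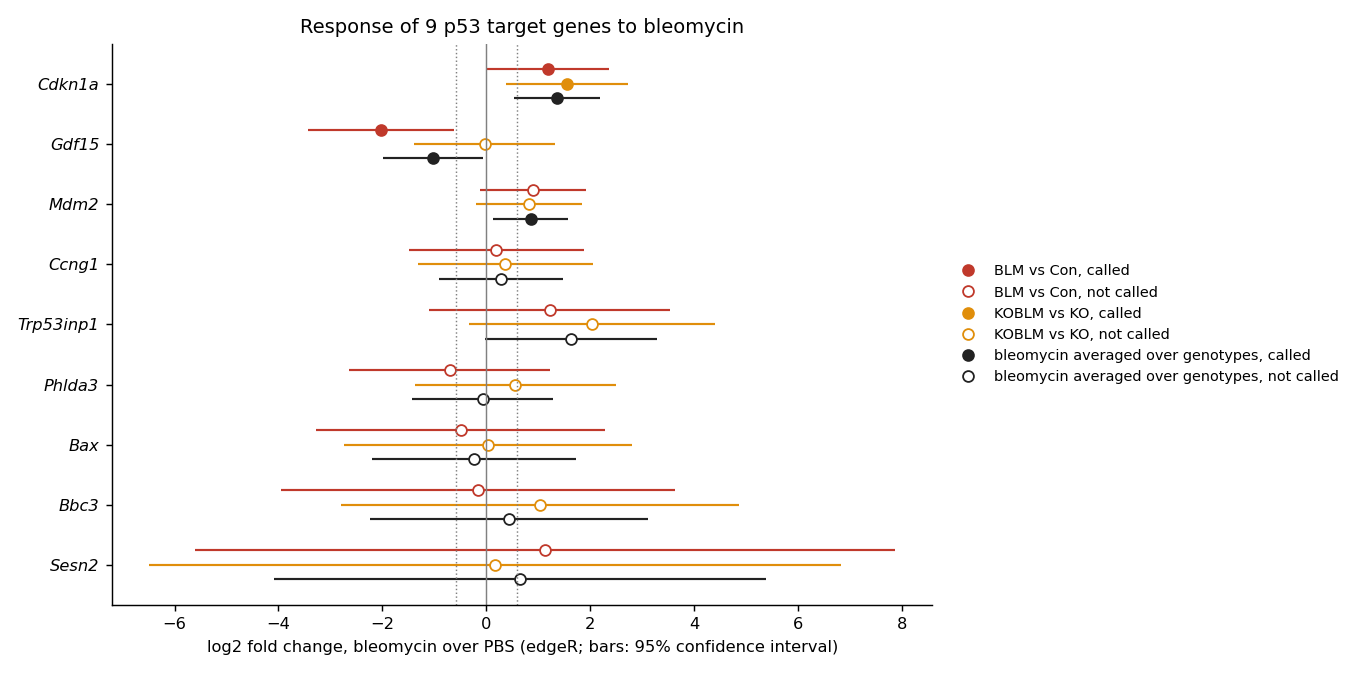
Log2 fold change of bleomycin over PBS (edgeR) of the 9 tested p53 target genes, in BLM vs Con (red), KOBLM vs KO (orange) and averaged over genotypes (black), with 95% confidence intervals, filled points for called genes and dotted lines at ±0.585, a fold change of 1.5. Cdkn1a is called in all 3 comparisons, at 1.19, 1.55 and 1.37, and Gdf15 is called at -2.02 in BLM vs Con but stands at -0.03 in KOBLM vs KO.

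Cdkn1a (chromosome 17, 29090976 to 29100727, + strand) encodes p21, the inhibitor of cyclin-dependent kinases that carries out the arrest of the cell cycle by p53. Its levels in Con 1 to 3 were 445, 468 and 214 CPM, and in BLM 1 to 3 they were 1319, 918 and 331 CPM. In KO 1 to 3 they were 404, 249 and 225 CPM, and in KOBLM 1 to 3 they were 824, 1119 and 634 CPM. BLM 1 and 2 lay above every Con library, whereas BLM 3 lay within the Con range, and the 3 KOBLM libraries lay above the 3 KO libraries. The mean was 376 ± 141 CPM in Con, 856 ± 497 CPM in BLM, 293 ± 97.1 CPM in KO and 859 ± 244 CPM in KOBLM (SD, n = 3 each). In edgeR the log2 fold change was 1.19 in BLM against Con (SE 0.54, 95% confidence interval 0.02 to 2.35, adjusted p = 0.995), 1.55 in KOBLM against KO (SE 0.55, interval 0.38 to 2.73, adjusted p = 1.0) and 1.37 averaged over genotypes (SE 0.39, interval 0.54 to 2.20, adjusted p = 1.0), a 2.58-fold rise.

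The call of Cdkn1a in BLM against Con was close to the threshold. It was kept without BLM 3 (log2 fold change 1.57) and lost without any 1 of the other 11 libraries, with the lowest value, 0.73, without BLM 1. In KOBLM against KO it was lost only without KO 3 (1.40). The averaged call was kept in all 12 of these fits. An exact permutation of the treatment labels within each genotype gave p = 0.015 for Cdkn1a (two-sided, 400 assignments, smallest possible p 0.005), and p = 0.005 without BLM 3 (200 assignments). With all 12 libraries 6.09% of all tested genes had a p under 0.05 by this test. The genotypes did not differ detectably in this response, with an interaction of 0.37 (95% confidence interval -1.26 to 1.99), which spans differences of several fold in either direction.

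Mdm2 (chromosome 10, 117688875 to 117710758, - strand) encodes the ligase that ubiquitinates p53. In Con 1 to 3 it stood at 109, 76.4 and 139 CPM, and in BLM 1 to 3 at 240, 179 and 184 CPM. In KO 1 to 3 it stood at 124, 150 and 126 CPM, and in KOBLM 1 to 3 at 200, 261 and 246 CPM. The groups did not overlap in either genotype, and all 6 libraries after bleomycin lay above all 6 after PBS. Mdm2 was the only member of the 9 for which this held, beside 0.437% of all tested genes in either direction. The means were 108 ± 31.3 CPM in Con, 201 ± 34.0 CPM in BLM, 133 ± 14.3 CPM in KO and 236 ± 32.0 CPM in KOBLM (SD, n = 3 each).

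The rise of Mdm2 was 1.81-fold averaged over genotypes (log2 0.86, SE 0.34, 95% confidence interval 0.14 to 1.58, edgeR adjusted p = 1.0), and its exact permutation within genotype gave p = 0.005, the smallest possible, which 0.812% of all tested genes reached, or 0.01 without BLM 3. Within a genotype it was not called, with log2 fold changes of 0.90 in BLM against Con (95% confidence interval -0.13 to 1.92) and 0.82 in KOBLM against KO (-0.20 to 1.84). Without BLM 3 it passed in both, at 0.96 and 0.82, and with DESeq2 on all 12 libraries it passed in BLM against Con (0.96). The averaged call was lost without BLM 1 (0.78), Con 1 (0.86), Con 2 (0.76), KO 1 (0.83) or KOBLM 3 (0.84) and where the low-count filter was left out (0.85). The interaction of Mdm2 with genotype was -0.07 (95% confidence interval -1.51 to 1.36).

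Trp53inp1 (chromosome 4, 11156431 to 11174379, + strand) encodes a stress protein that promotes p53 phosphorylation and cell death. Its levels were 52.2, 43.4 and 11.3 CPM in Con 1 to 3, 125, 46.1 and 77.3 CPM in BLM 1 to 3, 28.5, 24.7 and 1.58 CPM in KO 1 to 3, and 16.9, 154 and 54.0 CPM in KOBLM 1 to 3. The groups overlapped in both genotypes, by BLM 2 and by KOBLM 1. Its log2 fold change averaged over genotypes, 1.63, was the largest of the 9, but it missed the threshold (SE 0.77, 95% confidence interval -0.03 to 3.28, edgeR adjusted p = 1.0), and the exact permutation gave p = 0.05. It passed the threshold with DESeq2 size factors (1.67), library size alone (1.71), no low-count filter (1.65) and DESeq2 (1.67), and without BLM 3 (1.65) or KOBLM 1 (1.85). Without BLM 3 the exact permutation gave p = 0.085. No other fit that left out a library passed, and the lowest value was 1.09, without KOBLM 2, the library with 154 CPM.

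Gdf15 (chromosome 8, 70629393 to 70632456, - strand) encodes a secreted stress cytokine of the TGF-β superfamily, which is induced by p53 and also by the integrated stress response, the pathway of the transcription factor ATF4. It was the second most abundant member, with 286, 364 and 407 CPM in Con 1 to 3 and 71.1, 170 and 19.7 CPM in BLM 1 to 3. In KO 1 to 3 it stood at 313, 632 and 264 CPM, and in KOBLM 1 to 3 at 408, 359 and 416 CPM. All 3 BLM libraries lay below every other library, and the KOBLM values lay within the KO range. The mean fell from 352 ± 61.2 CPM in Con to 86.8 ± 76.2 CPM in BLM (SD, n = 3 each), with a log2 fold change of -2.02 (SE 0.66, 95% confidence interval -3.43 to -0.61, edgeR adjusted p = 0.995). This call was kept in each of the 12 fits that left out a library and was -1.55 without BLM 3.

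After bleomycin Gdf15 was higher in KOBLM than in BLM, by 2.19 on the log2 scale (SE 0.66, 95% confidence interval 0.77 to 3.60, edgeR adjusted p = 1.0), the only member called in this comparison, in which 3.16% of all genes were. That comparison and BLM against Con share the 3 BLM libraries. The difference between the genotypes in the response to bleomycin, tested as an interaction, was 1.99 (95% confidence interval 0.05 to 3.93, edgeR adjusted p = 1.0), and Gdf15 was again the only member called, beside 2.82% of all genes. The interaction call was lost without any 1 of BLM 1, the 3 Con libraries, KO 1, KO 3 and the 3 KOBLM libraries, at values of 1.76 to 2.12, and kept without BLM 3 (1.52). The averaged fall (-1.03, SE 0.45, edgeR adjusted p = 1.0, exact permutation p = 0.075) was carried by BLM against Con, since KOBLM against KO was at -0.03. It was lost without BLM 1, Con 2, Con 3, KO 2 or any KOBLM library, at values of -1.05 to -0.81. No member was called in KO against Con, beside 1.44% of all genes.

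The macrophage markers moved in both directions in the same comparisons. Itgax, which encodes CD11c and is high in alveolar macrophages, stood at 487 to 693 CPM in Con, 87.1 to 179 CPM in BLM, 296 to 670 CPM in KO and 301 to 721 CPM in KOBLM, and the 3 BLM values lay below all others, as those of Gdf15 did. It was called in BLM against Con (-2.20) and was the only 1 of the 16 markers called higher in the interaction (2.07), whereas C1qa (-6.15), C1qb (-5.96), C1qc (-6.67) and Msr1 (-5.11) were called lower. Mrc1, the mannose receptor of macrophages, also fell in BLM against Con (-1.65), whereas those 4 markers rose, and the median of the 16 was -0.07, beside -0.08 over all genes. Over all tested genes 1.51% were called higher and 1.31% lower in the interaction, and 2.19% higher and 2.08% lower in BLM against Con. The part of macrophages in the Gdf15 values was not tested.

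A summary of groups that did not overlap puts these genes beside the background. In BLM against Con this held for 2 of the 9 members (Mdm2 and Gdf15) and for 16.0% of all tested genes. In KOBLM against KO it held for 2 (Cdkn1a and Mdm2) and for 6.87% of all genes, and in KOBLM against BLM for 1 (Gdf15) and for 10.8% of all genes. With 3 mice against 3 an exact permutation test cannot go below p = 0.1, which Mdm2 and Gdf15 reached in BLM against Con and Cdkn1a and Mdm2 in KOBLM against KO.

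Among the remaining arrest and feedback genes, Ccng1 (chromosome 11, 40748552 to 40755311, - strand), which encodes cyclin G1, a partner of the phosphatase that acts on Mdm2, differed more within groups than between them. It ranged from 45.9 to 166 CPM in Con, from 41.7 to 180 CPM in BLM, from 61.1 to 134 CPM in KO and from 49.9 to 199 CPM in KOBLM, and the highest value of each group was in Con 3, BLM 3, KO 3 and KOBLM 2. These 4 libraries had the fewest detected genes of their groups (10246, 6847, 8790 and 9018) and the highest total counts (10381596 to 11153154), and the part of these properties in the values was not tested. Its averaged log2 fold change was 0.28 (95% confidence interval -0.91 to 1.47). Phlda3 (chromosome 1, 135766119 to 135769136, + strand), an inhibitor of the kinase Akt, stood at 46.1 ± 10.0 CPM in Con, 28.3 ± 12.3 CPM in BLM, 34.0 ± 21.1 CPM in KO and 50.2 ± 22.0 CPM in KOBLM (SD, n = 3 each). Its log2 fold changes, -0.70 in BLM against Con and 0.56 in KOBLM against KO, were not called.

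The pair of apoptosis genes of the Bcl-2 family showed no called difference. Bax (chromosome 7, 45461697 to 45466898, - strand), which forms pores in the mitochondrial membrane, ranged from 0.891 to 79.0 CPM in Con, 15.5 to 38.6 CPM in BLM, 15.1 to 89.7 CPM in KO and 14.4 to 86.9 CPM in KOBLM. Con 1 had 7 counts of Bax and Con 3 had 898. Its averaged log2 fold change was -0.23 (95% confidence interval -2.19 to 1.73), which leaves room for a change of several fold. Bbc3 (chromosome 7, 16308393 to 16318205, + strand), which encodes PUMA, an activator of Bax, stood at 8.40, 14.6 and 67.5 CPM in Con 1 to 3 and at 43.0 and 38.0 CPM in BLM 1 and 2, with 0 counts in BLM 3. In KO 1 to 3 it stood at 16.2, 9.39 and 9.32 CPM, and in KOBLM 1 to 3 at 38.2, 0.755 and 32.7 CPM. Its averaged log2 fold change was 0.44 (95% confidence interval -2.24 to 3.12).

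The metabolic and receptor genes were near the floor. Sesn2 (chromosome 4, 132492032 to 132510501, - strand), which encodes sestrin 2, an inhibitor of mTORC1, had at most 74 counts (10.9 CPM, BLM 2), and its averaged log2 fold change of 0.65 had a 95% confidence interval of -4.08 to 5.38. Eda2r (chromosome X, 97333840 to 97377216, - strand), the receptor of ectodysplasin A2, had 90 counts (6.50 CPM) in BLM 3 and 0 in the other 11 libraries, which allows up to 0.250 to 0.494 CPM in each of those. The Eda2r count was thus found in the library that stood apart, and Eda, the gene of its ligand, had no count in any group. Gfral, the gene of the GDF15 receptor, which is known from the hindbrain, had none either, and of the 5 genes of such ligand and receptor partners 2 were tested and none was called.

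The members did not move as a block across the 12 libraries. On log2(CPM + 1), Pearson's r was 0.59 between Cdkn1a and Mdm2 and 0.68 between Cdkn1a and Trp53inp1, and without BLM 3 these were 0.64 and 0.76. The highest r among the 36 pairs was that of Ccng1 and Bax (0.77), both of which were highest within their groups in Con 3, BLM 3, KO 3 and KOBLM 2, the libraries with the fewest detected genes, and Bax and Sesn2 had the lowest (-0.57). Gdf15 and Cdkn1a stood at -0.15, or -0.55 without BLM 3. These values describe 12 points that share library depth and treatment and were not tested.

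**Figure D3:**
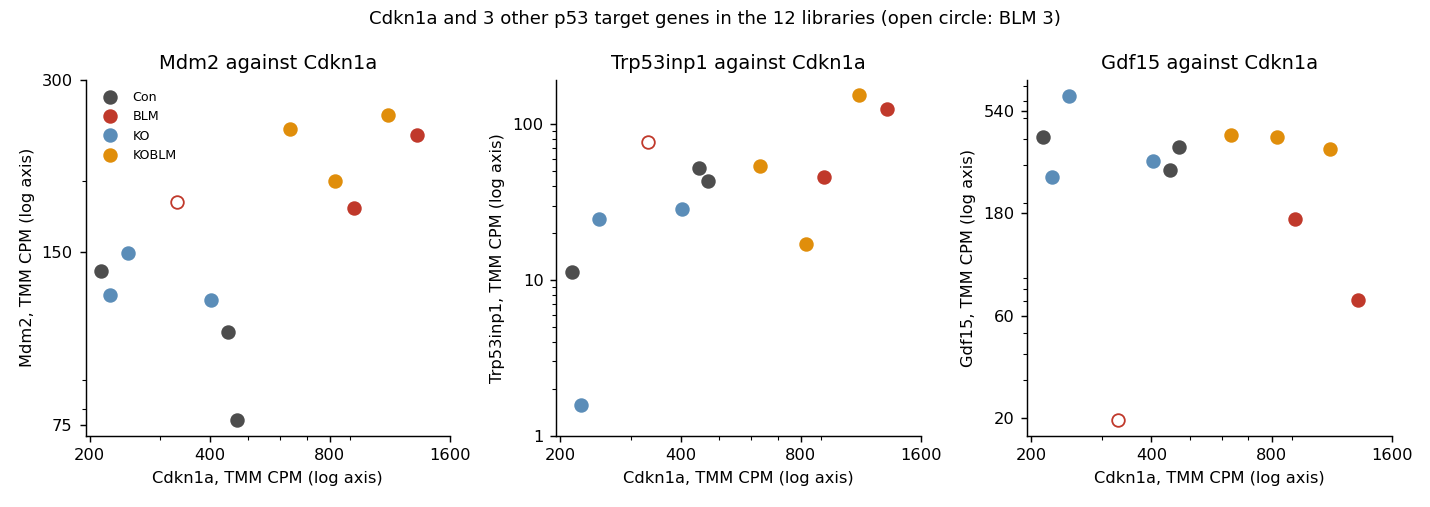
Levels of Mdm2, Trp53inp1 and Gdf15 against Cdkn1a in the 12 libraries (TMM CPM, log axes), coloured by group, with an open circle for BLM 3. The 5 libraries with the highest Cdkn1a (634 to 1319 CPM) are those of BLM 1, BLM 2 and KOBLM, and BLM 3 has Mdm2 at 184 CPM with Cdkn1a at 331 CPM and Gdf15 at 19.7 CPM.

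Outside the members, the genes whose levels were most like Cdkn1a over the 12 libraries, of 8904 with a mean of at least 10 CPM, were Jak2 (r = 0.97), 8430408G22Rik (0.95) and Slc22a15 (0.91). They were also the first 3 without BLM 3. The genes most like Mdm2 were Vmp1 (0.88), Sdc1 (0.84) and Sod2 (0.83), which ranked 1, 4 and 8 without BLM 3.

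The regulators upstream of the members were then described. Trp53, the gene of p53, which is controlled mainly at the protein level, stood at 43.7, 42.7 and 68.4 CPM in Con 1 to 3 and at 21.8, 18.2 and 0.144 CPM in BLM 1 to 3. The 3 BLM values lay below the 3 Con values, and the BLM 3 value came from 2 counts, under the floor of 3, in a library where Mdm2 stood at 184 CPM. In KO it ranged from 16.6 to 118 CPM and in KOBLM from 9.44 to 74.1 CPM. Trp53 was not called (averaged log2 fold change -1.32, 95% confidence interval -3.26 to 0.61). Mdm4, the partner of Mdm2 that masks the activation domain of p53, was at -0.06 (95% confidence interval -1.24 to 1.13). None of the 14 tested genes among p53 and its regulators was called in any of the 6 comparisons, and neither was any of the 16 genes of DNA break sensing, which included the kinases Atm, Atr, Chek1 and Chek2. Over all tested genes 1.44% to 4.47% were called per comparison, shares at which lists of this size can hold no call.

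**Figure D4:**
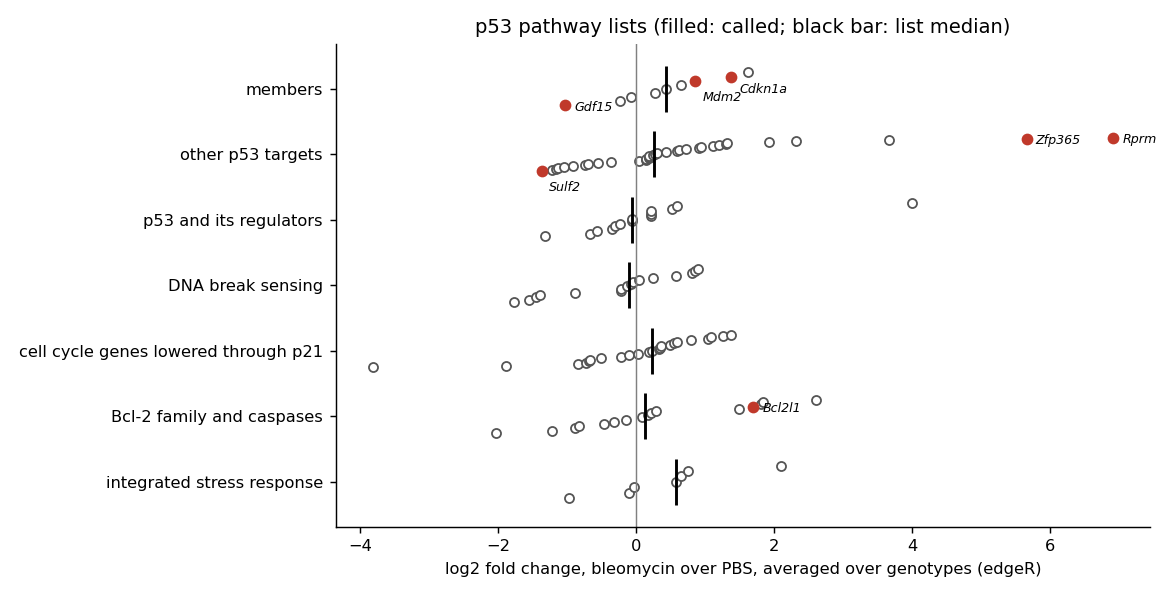
Log2 fold change of bleomycin over PBS averaged over genotypes (edgeR) of the 9 tested members and of every tested gene in 6 lists of the p53 pathway, with called genes filled and named and a black bar at the median of each list. Of the 34 other p53 targets, Zfp365 and Rprm are called higher and Sulf2 lower, Bcl2l1 is called higher among the Bcl-2 family and caspases, and the medians lie between -0.10 and 0.58.

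A wider list of 37 other p53 targets was used to see whether the members stood for the programme. Of its 36 genes in the files, 34 were tested. Averaged over genotypes 2 rose (Rprm and Zfp365) and 1 fell (Sulf2), with 24 of the 34 above 0 and a median of 0.26, whereas over all tested genes 4.47% were called, 51.3% were above 0 and the median was 0.03. In BLM against Con 1 rose (Ei24) and 2 fell (Perp and Sulf2), with a median of -0.07 (-0.08 over all genes, of which 4.27% were called), and in KOBLM against KO 1 rose (Rprm) and none fell, with a median of 0.25 (0.08 over all genes, of which 1.69% were called). The medians were the same where genes with a group at 0 counts were set at the detection floor. Zmat3, an RNA-binding tumour suppressor, had values of 16.6 ± 6.85 CPM in Con, 59.6 ± 46.7 CPM in BLM, 24.6 ± 18.4 CPM in KO and 42.7 ± 19.7 CPM in KOBLM (SD, n = 3 each) and was not called (averaged log2 fold change 1.32, 95% confidence interval -0.22 to 2.86). Zmat3 passed the threshold with DESeq2 (1.38). It stood at 114 CPM in BLM 3 and at 31.5 and 33.9 CPM in BLM 1 and 2, and its averaged value was 0.88 without BLM 3.

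The genes called on that list differed in level. Sulf2, an extracellular sulfatase, was abundant, with 404, 306 and 456 CPM in Con 1 to 3 and 60.4, 140 and 37.9 CPM in BLM 1 to 3. Its log2 fold change in BLM against Con was -2.29 (SE 0.58, edgeR adjusted p = 0.995), kept without any 1 library, and it ranged from 179 to 434 CPM in KO and from 219 to 316 CPM in KOBLM. Perp, a membrane protein that takes part in p53-dependent apoptosis, fell from 74.3 ± 24.8 CPM in Con to 18.3 ± 8.94 CPM in BLM (SD, n = 3 each; log2 fold change -2.02, edgeR adjusted p = 0.995). Its call was lost with DESeq2 size factors (-1.89), with library size alone (-1.94), without the low-count filter (-1.99) and without BLM 1 (-1.78), BLM 2 (-1.91), Con 1 (-1.80) or Con 3 (-1.97).

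Rprm, which encodes reprimo, a mediator of arrest in G2, had 44 and 102 counts in BLM 1 and 2 and 75 and 47 in KOBLM 1 and 3, whereas the other libraries had 0, except Con 2 with 5. With KO at 0 in all 3 libraries its mean in KOBLM, 5.40 CPM, was at least 15.3-fold higher than the floor of 3 counts per library. Its call in KOBLM against KO (edgeR adjusted p = 1.0) was kept only without BLM 3 or KOBLM 2 among the 12 fits that left out a library, and its averaged call was lost only without Con 1. Zfp365 had 1259 counts in BLM 3 and at most 101 in any other library, and Ei24, a protein of the endoplasmic reticulum, had 158 CPM in BLM 3 and 38.3 and 68.8 CPM in BLM 1 and 2. Without BLM 3 the call was lost for Zfp365 (averaged log2 fold change 2.46) and for Ei24 (1.23 in BLM against Con, from 1.95 with all libraries). Among the fits that left out a library, Zfp365 was called only without BLM 1, BLM 2, Con 3 or KOBLM 2, and Ei24 only without BLM 1, KO 3 or KOBLM 2.

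Genes that p21 lowers through the repression of E2F targets and mitotic genes were compared next, since Cdkn1a was higher after bleomycin. Of the 23 tested, none was called averaged over genotypes (median 0.23). In BLM against Con 1 rose, Cenpf, a kinetochore protein, at 20.75, 53.01 and 9.67 CPM in Con 1 to 3 and 26.7, 46.2 and 536 CPM in BLM 1 to 3. Without BLM 3 its log2 fold change went from 2.87 to 0.39, and the call was also lost without Con 1 (2.68) or Con 3 (2.45). The list summed to 4646 CPM in BLM 3 and to 391 to 987 CPM in the other libraries. In KOBLM it summed to 391 to 609 CPM and in KO to 764 to 851 CPM, which did not overlap, whereas none of its genes was called in KOBLM against KO (median -0.47). In KOBLM against BLM 6 were called lower (Cdk1, Cdc20, Top2a, Cenpe, Cenpf and Mcm3; median -1.85) and in the interaction 2 (Cenpf and Cdc20), both comparisons that hold BLM 3, in which Cdc20 stood at 353 CPM and in every other library at 42.7 CPM or less. The BLM values lay above the KOBLM values for Cdk1 (lowest 20.5 and highest 14.8 CPM), Cdc20 (18.0 and 10.7 CPM) and Mcm3 (45.9 and 39.0 CPM). They overlapped for Top2a, Cenpe and Cenpf. Without BLM 3 Cenpf stood at -0.41 in KOBLM against BLM and was not called, and no such fit is given for the others. Over all tested genes 1.78% were called lower in KOBLM against BLM and 1.31% in the interaction, and 10.8% did not overlap between KOBLM and BLM.

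Averaged over genotypes, 2.72% of all tested genes were called higher and 1.75% lower. Of the 16 tested genes of the Bcl-2 family and the caspases, 1 rose in this comparison and none fell. It was Bcl2l1, which encodes the anti-apoptotic Bcl-xL and so acts against Bax and Bbc3, with 20.2, 36.6 and 2.20 CPM in Con 1 to 3, 89.3, 104 and 49.97 CPM in BLM 1 to 3, 25.4, 26.4 and 9.91 CPM in KO 1 to 3 and 75.9, 20.5 and 61.5 CPM in KOBLM 1 to 3. The BLM values lay above the Con values, and KOBLM 2 lay within the KO range. The averaged log2 fold change was 1.70 (SE 0.72, edgeR adjusted p = 1.0). The call was kept only without BLM 3, Con 2, KO 2 or KOBLM 2 among the 12 fits that left out a library, which ranged from 1.43 without Con 3 to 2.11 without Con 2.

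The integrated stress response, which also controls Gdf15 and Sesn2, was described beside them. Atf4 was at 335 ± 29.5 CPM in Con and 318 ± 35.8 CPM in BLM (SD, n = 3 each), with an averaged log2 fold change of -0.02 (95% confidence interval -0.72 to 0.68). In BLM against Con 2.19% of all tested genes were called higher. Of the 7 tested genes of this list 1 rose in BLM against Con, Slc7a11, the cystine transporter, from 6.29 ± 4.71 CPM to 102 ± 75.1 CPM (SD, n = 3 each; log2 fold change 4.02, edgeR adjusted p = 0.995). Its call was lost without BLM 1 (3.33), Con 2 (3.77) or Con 3 (3.69). Slc7a11 was also called in KO against Con (4.49), a comparison that shares the Con libraries, with 36.9 to 345 CPM in KO, and this call was lost without Con 2, Con 3 or KO 2 (2.65 without KO 2).

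Some markers of other cells differed between groups in which members differed. The 8 fibroblast markers summed to 88.9 to 460 CPM in Con, 919 to 1959 CPM in BLM, 50.7 to 412 CPM in KO and 191 to 676 CPM in KOBLM. Of these 8, 3 rose in BLM against Con (Col1a2, Col3a1 and Acta2). Over all tested genes 2.19% were called higher and 2.08% lower in BLM against Con. Of the 7 airway markers 3 were tested, and 1 rose in BLM against Con, Scgb1a1 (from 59.4 to 215 CPM), whereas Scgb3a2 (7.09 and 4.87 CPM) and Cyp2f2 (4.88 and 3.72 CPM) were not called. Of the 8 tested B cell and dendritic cell markers 2 fell in BLM against Con (Cd79a and Ms4a1, with a median of -2.65 for the list). The endothelial markers were not called in either genotype, but 7 of 7 were above 0 in KOBLM against KO (median 1.56) and 1 was called higher in the interaction (Kdr, 3.03). Over all tested genes 53.8% were above 0 in KOBLM against KO and 1.51% were called higher in the interaction. The endothelial sum was 1423 CPM in KOBLM 1 and 198 and 263 CPM in KOBLM 2 and 3. The sums of the 8 neutrophil markers were 313 to 949 CPM in KO and 1392 to 2220 CPM in KOBLM. They overlapped between Con (98.8 to 3454 CPM) and BLM (113 to 5815 CPM). Summed fibroblast markers and Scgb1a1 thus separated BLM from Con, as Mdm2 and Gdf15 did. Summed neutrophil markers separated KOBLM from KO, as Cdkn1a and Mdm2 did, but not BLM from Con, where Mdm2 also separated. Of all tested genes, 16.0% did not overlap between BLM and Con and 6.87% between KOBLM and KO. The macrophage markers overlapped between the groups (8795 to 18755 CPM in Con, 798 to 10906 CPM in BLM, 11570 to 32765 CPM in KO and 7519 to 16443 CPM in KOBLM), and so did the ATII markers as a sum, whereas 2 of the 12 tested ATII markers fell in BLM against Con, Sftpc (from 323 to 35.0 CPM) and Sftpa1 (from 298 to 29.8 CPM). Of these 12, 3 were above 0 in that comparison (median -1.65, beside -0.08 over all genes). The highest gene of the ATII sum was Cd74, a sort marker (1091 CPM in Con and 1438 CPM in BLM). Of the 8 neutrophil markers, the granule genes Mpo and Elane had no count in BLM, KO or KOBLM, whereas S100a8 and S100a9 had means of 530 and 966 CPM in KOBLM. In these bulk samples fewer cells of a type and less RNA per cell cannot be told apart, and the part of other cell types in the levels of the p53 target genes was not tested.

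**Figure D5:**
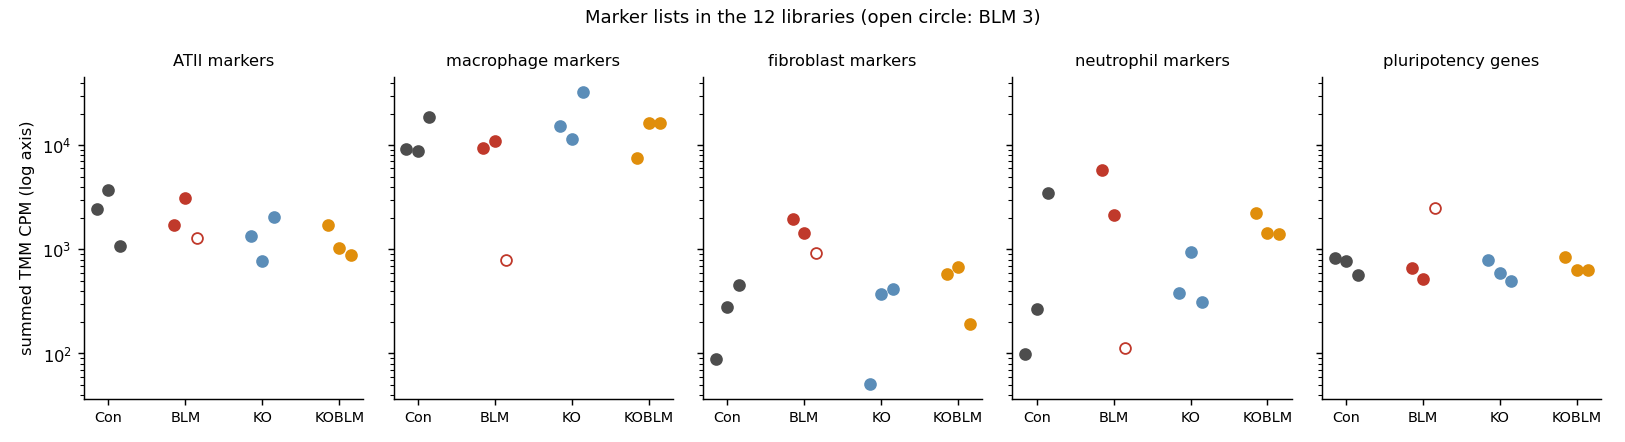
Summed TMM CPM (log axis, shared by the panels) of ATII, macrophage, fibroblast and neutrophil markers and of pluripotency genes in the 12 libraries, with an open circle for BLM 3. BLM 3 is lowest for macrophage markers (798 CPM) and highest for pluripotency genes (2480 CPM), and the fibroblast markers are higher in the 3 BLM libraries (919 to 1959 CPM) than in the 3 Con libraries (88.9 to 460 CPM).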

How the data were processed

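Total RNA of sorted ATII cells was sequenced (QuantSeq 3′ kit, single-end, 75 nt), 1 library per mouse. The authors deposited raw counts per gene symbol, without normalization; their processing notes name Bowtie2, edgeR and mm10, and the counting program and its strand setting are not given in the sources used here. Entries that share a symbol (79 of 23282 entries) were summed. The 12 libraries held 7005005 to 11153154 counts.

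Genes were filtered with filterByExpr (minimum count 10, minimum total 15), scaled by TMM and fitted with the quasi-likelihood test of edgeR 4.0.16 in 1 model of the 4 groups, without a replicate block (8 residual degrees of freedom, biological coefficient of variation 1.44). Single genes were compared with two-sided exact permutation tests on CPM, or on log2(CPM + 1) within genotype. Adjusted p values are Benjamini-Hochberg values over the 13054 tested genes. The 95% confidence intervals of log2 fold changes come from the edgeR fit. Members and lists were chosen with earlier results of these data known. Other genes are named if called on a p53 pathway list in a bleomycin comparison, if among the 3 most like Cdkn1a or Mdm2, or if Trp53, Mdm4, Zmat3, Atf4 or Ep300. Every other gene in the text (markers, Cdk1, Cdc20, Top2a, Cenpe, Mcm3, Atm, Atr, Chek1, Chek2, Eda and Gfral) was named after its values were seen. Positions come from GENCODE M21 on GRCm38, the build of mm10.

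Alternatives were DESeq2 size factors, library size alone, no filter, a replicate block, DESeq2 1.42.0, adjusted p, and the omission of each library; DESeq2 with adjusted p and a permutation without BLM 3 were chosen after seeing the data. The fits were tested on simulated data. R 4.3.3 and Python 3.11.15 were used.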

Additional observations from a re-analysis of the deposited data

Results flagged for a closer look

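By the interaction term of edgeR, at the fold change threshold and an unadjusted p under 0.05, 10 genes named in the report were called. None passed after adjustment. Cdc20, Kdr and the macrophage markers among them were named after their values were seen, and no fits without 1 library are given for these. Gdf15 had an interaction of 1.99 on the log2 scale (95% confidence interval 0.05 to 3.93, edgeR adjusted p = 1.0), with BLM below Con in all 3 libraries and KOBLM within the KO range; its call was lost in 9 of the 12 fits that left out a library. Sulf2 had one of 1.85 (edgeR adjusted p = 1.0), with BLM at 37.9 to 140 CPM and every library of the other groups at 179 CPM or above; its call was lost without BLM 1, Con 1, Con 3, KO 2 or KOBLM 2, at 1.55 to 1.83. Cenpf had one of -3.58 (edgeR adjusted p = 1.0), which was -1.10 and not called without BLM 3, the library with 536 CPM of Cenpf, and was lost also without Con 1, Con 3 or KOBLM 1, at -3.39 to -3.16. Cdc20, a mitotic gene at 353 CPM in BLM 3, had one of -5.19. Of the macrophage markers Itgax had one of 2.07, C1qa -6.15, C1qb -5.96, C1qc -6.67 and Msr1 -5.11, and the endothelial marker Kdr had one of 3.03. Over all tested genes 2.82% passed the same threshold. Groups of 3 libraries were too small for the test of single outlying values.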

How the results depend on the processing

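Of 841 values under alternatives, 456 of those without 1 library and 215 of the others kept their direction and side of the threshold. The count of genes called moved with DESeq2 to 947 (BLM against Con), 374 (KO against Con), 755 (KOBLM against BLM), 460 (KOBLM against KO) and 625 (interaction). Without the low-count filter it was 645 (KOBLM against BLM), 920 (averaged) and 706 (interaction). With adjusted p it was 0 in edgeR in all 6 comparisons and, in DESeq2, 114, 80, 78, 57, 104 and 85 (BLM against Con, KO against Con, KOBLM against BLM, KOBLM against KO, averaged, interaction), and 0 members passed in either tool. Without 1 library it ranged from 292 to 767 (BLM against Con), 88 to 446 (KO against Con), 236 to 471 (KOBLM against BLM), 105 to 433 (KOBLM against KO), 486 to 1009 (averaged) and 332 to 672 (interaction). Members called ranged from 1 to 3 (BLM against Con), 0 to 2 (KOBLM against KO), 1 to 4 (averaged) and 0 to 1 (interaction). The causes were not tested, beyond the fewer samples or other genes each fit holds.

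Same-numbered libraries did not deviate together (0 of 18 pairs with r above 0.1, from -0.117 to 0.096), so the numbers were not taken to pair them. With a replicate block 100 genes were called in KO against Con and in KOBLM against KO, 262 in KOBLM against BLM, 360 averaged and 242 in the interaction, and 2, 1, 4 and 1 members were called in BLM against Con, KOBLM against KO, averaged and in the interaction. The block brought Trp53inp1 averaged past the threshold (2.02). It ended the calls of Perp (-1.94), Ei24 (1.66), Slc7a11 (3.97) and Cenpf (2.22) in BLM against Con, of Rprm in KOBLM against KO, of Cenpf in KOBLM against BLM (-2.36), and of the Sulf2 (1.87) and Cenpf (-2.96) interactions. The direction reversed under the block for uncalled values of Bax (BLM against Con 0.44, averaged 0.42), Bbc3 (BLM against Con 0.13), Gdf15 (KOBLM against KO 0.14) and Mdm4 (averaged 0.090).

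Other reversals were of small, uncalled values. Bax in KOBLM against KO was at -0.028 with DESeq2 and with its size factors, -0.046 with library size alone and -0.013 without the filter. Atf4 averaged was at 0.0062, 0.0061 and 0.0040 with DESeq2, its size factors and library size, and with library size Gdf15 in KOBLM against KO was at 0.022 and Mdm4 averaged at 0.0070. The permutation without BLM 3 gave differences of 0.525 for Bbc3, -0.056 for Ccng1 and 0.139 for Phlda3. Library size alone moved the median of all genes in KO against Con by -0.12, to -0.212.

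Without 1 library, log2 fold changes with a reversal ranged as follows. Averaged, they were -0.20 to 0.12 for Atf4, -0.76 to 0.58 for Bax, -0.10 to 0.73 for Ccng1, -0.25 to 0.29 for Mdm4, -0.32 to 0.089 for Phlda3 and -3.09 to 1.18 for Sesn2. In BLM against Con they were -1.07 to 1.13 for Bax, -0.67 to 1.23 for Bbc3, -0.57 to 1.09 for Ccng1 and -0.64 to 2.19 for Sesn2. In KOBLM against KO they were -1.02 to 1.27 for Bax, -0.34 to 0.83 for Ccng1, -0.26 to 0.42 for Gdf15 and -7.32 to 1.25 for Sesn2. Sesn2 had 0 counts in 5 libraries, also in the deepest, and Eda2r in 11, and Eda2r was not tested.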
